A study of Homo sapiens with 24 samples.

Results

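The NDRG (N-myc downstream regulated gene) family has 4 members, *NDRG1*, *NDRG2*, *NDRG3* and *NDRG4*, which were taken by symbol from the 23106 genes of each count table. The family was selected on the hypoxia response of *NDRG1*, known from earlier analysis of the same counts. Its hypoxia values are therefore given as a description with no p value. The other 3 members entered by name alone and kept the p values of the fits over all genes.

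NDRG proteins share an alpha/beta hydrolase fold that has lost its enzymatic activity. *NDRG1* is a widely used marker of hypoxia, is induced by hypoxia-inducible factor (HIF), is repressed by N-myc, and encodes a cytoplasmic protein phosphorylated by SGK1 and GSK3. *NDRG2* is repressed by MYC and often reduced in tumors, NDRG3 protein is hydroxylated by PHD2 and stabilized by lactate, and *NDRG4* is best known from brain and heart.

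PolyA RNA was sequenced from 4 human carcinoma lines, A549 (lung), HCT-116 (colorectal), PC3 (prostate) and T47D (breast). Each was kept in 21% oxygen (normoxia) or moved for 16 h to 0.5% oxygen (hypoxia), with 3 replicates in each of the 8 groups. The labels name no transgene or drug, and all media held serum, glutamine and antibiotics. A549 and PC3 grew in F12K, HCT-116 in McCoy's 5a and T47D in DMEM, so medium and line cannot be told apart. Nothing in the labels says that replicates were separate cultures, so the p values measure the spread between these libraries, which may be technical. Each line is a single tumor's descendant and stands for no tissue as a whole.

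Each library held between 22698584 and 62850747 counted reads. Levels are given as CPM, the count scaled to the size of the library after TMM normalization over all 24 libraries. Hypoxia fold changes by line used a separate TMM normalization within each line. They can therefore differ from the ratio of the CPM values, as in HCT-116. A floor of 3 counts corresponded to 0.0436 to 0.132 CPM. A gene was called at an adjusted p under 0.05 and, for hypoxia, a fold change over 1.2. All 5 epithelial markers exceeded 1 CPM in all 6 libraries of every line, and so did 4 of 5 luminal breast markers in T47D. In contrast, 0 of 5 lung markers did in A549, 1 of 5 colorectal markers in HCT-116 and 2 of 5 prostate markers in PC3. These counts do not set the lines apart. In PC3 4 of 5 luminal breast markers passed too, at a summed 124 to 134 CPM in normoxia against 1508 to 1997 CPM in T47D. A549 passed for 3 of 5 prostate markers and 1 of 5 colorectal markers. The number of genes called in T47D rested on single libraries, with 942 called down in all, 19 without normoxia replicate 1 and 1756 without hypoxia replicate 3.

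*NDRG1* (GRCh37 chr8:134249418-134314265, minus strand, 16 exons in the canonical transcript) was upregulated by hypoxia in all 4 lines, without overlap between groups. In A549 cells its level was 64.4, 63.4 and 87 CPM in the 3 normoxic libraries and 1834, 1594 and 1919 CPM in hypoxia. In HCT-116 cells it was 40.6, 46.8 and 74.7 CPM in normoxia and 690, 2401 and 1483 CPM in hypoxia. The lowest hypoxic library was far above the highest normoxic one in both lines, but the hypoxic HCT-116 libraries were themselves widely spread.

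In PC3 cells *NDRG1* was already high in normoxia, at 326, 311 and 270 CPM, and reached 1819, 1334 and 1907 CPM in hypoxia. In T47D cells it was low in normoxia, at 1.83, 2.44 and 4.03 CPM, from 79 to 253 reads, and reached 252, 339 and 265 CPM. Hypoxic T47D cells thus held about as much *NDRG1* RNA as normoxic PC3 cells, with group ranges that overlapped.

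The log2 fold change of *NDRG1* was 4.63 in A549 (SE 0.16, 24.8-fold) and 4.70 in HCT-116 (SE 0.42, 26.1-fold). It was 2.43 in PC3 (SE 0.14, 5.39-fold) and 6.61 in T47D (SE 0.32, 97.5-fold). Among all genes tested, 9 rose more in A549, 4 in HCT-116, 23 in PC3 and 5 in T47D. Ranked by count within a library, *NDRG1* moved from between 10623 and 11650 in normoxic T47D libraries to between 427 and 672 in hypoxic ones, and hypoxic PC3 libraries placed it between 31 and 51.

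The size of this increase in the lines is given as a description, with no test. In 1 fit of all 24 libraries the log2 change in PC3 minus that in T47D was -4.20 (95% interval -5.14 to -3.25). A549 minus PC3 was 2.16 (1.25 to 3.06), and A549 minus T47D was -2.04 (-2.96 to -1.11). A549 minus HCT-116 was -0.18 (-1.08 to 0.71). The line with the highest normoxic level had the smallest fold change and the line with the lowest had the largest, but a fold change contains the normoxic level and the 2 quantities are not independent.

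**Figure D1:**
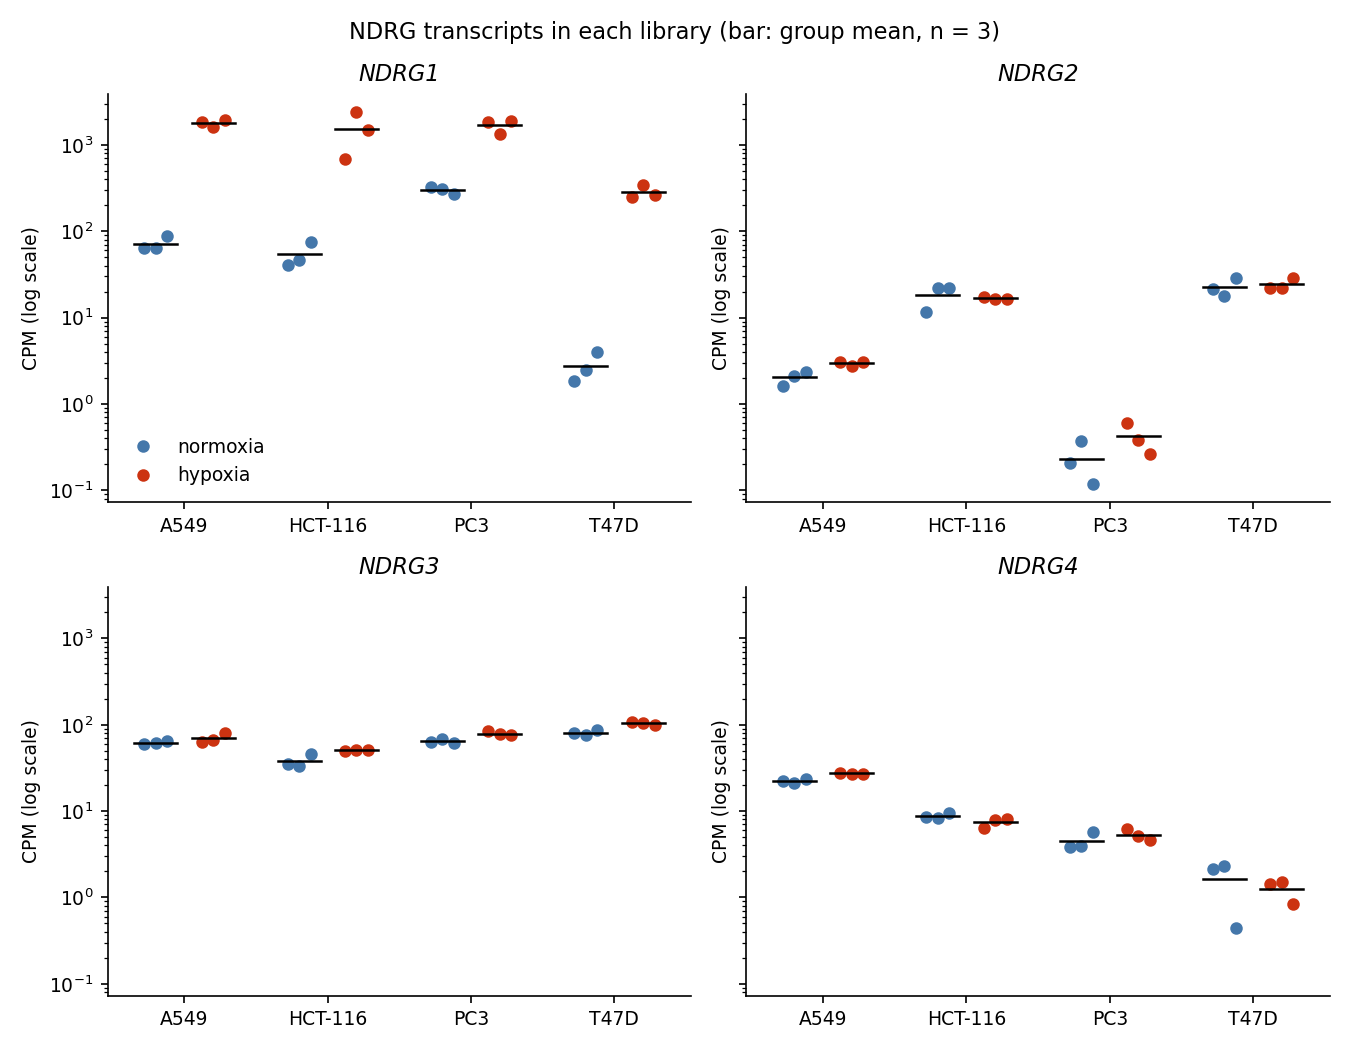
Level of each NDRG gene in each library, in CPM on a log scale, for 4 lines in normoxia (blue) and hypoxia (red). Points are libraries and bars are group means (n = 3). *NDRG1* shows separate groups in every line, from 1.83 to 4.03 CPM in normoxic T47D to 690 to 2401 CPM in hypoxic HCT-116, while *NDRG2* and *NDRG4* differ mainly between lines.

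*NDRG3* (chr20:35280169-35374493, minus strand, 16 exons) was expressed in all lines, with normoxic means from 38.2 to 81 CPM. Its mean was higher in hypoxia in each line, but no line passed the test on its own. In A549 cells it was 59.5, 61.4 and 65.4 CPM in normoxia and 62.8, 67 and 80.2 CPM in hypoxia, with overlap. In HCT-116 cells it was 35.4, 33.4 and 46 CPM against 49.1, 50.9 and 51.6 CPM. The hypoxic HCT-116 libraries were all above the normoxic ones.

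The same separation held in PC3, where *NDRG3* was 63, 68.6 and 61.3 CPM in normoxia and 83.6, 77.5 and 75.7 CPM in hypoxia. In T47D it was 80, 75.3 and 87.6 CPM in normoxia and 109, 106 and 98.8 CPM in hypoxia. Groups did not overlap in 3 of the 4 lines. The share of all genes that separate in this way is not given here, so nothing is read from that count. Log2 fold changes of *NDRG3* were 0.17 (edgeR quasi-likelihood, Benjamini-Hochberg adjusted p = 0.282), 0.29 (0.198), 0.24 (0.0545) and 0.29 (0.308) in A549, HCT-116, PC3 and T47D. Their 95% intervals reached 0.42, 0.68, 0.44 and 0.68, so increases of up to that size fit within the error. Without PC3 normoxia replicate 2 the PC3 increase was called (0.27, edgeR adjusted p = 0.0464). In 1 fit of all 24 libraries, *NDRG3* was called in HCT-116 (0.40, edgeR adjusted p = 0.0134) and T47D (0.37, edgeR adjusted p = 0.0438).

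Averaged over the 4 lines in that fit, a contrast added after the data were seen, *NDRG3* rose by 0.31 (SE 0.07, 95% interval 0.17 to 0.44, 1.24-fold, edgeR adjusted p = 0.0003). In the same contrast 26.1% of all genes tested were called up. The call rested on the scaling, the filter on low counts and replicate 2. With libraries scaled to total counts the average was 0.19, below the 1.2-fold limit, while the median of all genes moved from 0.05 to -0.06. With no filter it was 0.26 and without replicate 2 it was 0.24, also below that limit. The response of *NDRG3* did not differ detectably between lines (edgeR interaction adjusted p = 0.739), with pairwise intervals between -0.61 and 0.49.

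*NDRG2* (chr14:21484922-21539031, minus strand, 16 exons) differed far more between lines than between oxygen states. It was 1.61 to 2.37 CPM in normoxic and 2.74 to 3.1 CPM in hypoxic A549, without overlap. The other lines overlapped, at 11.6 to 22 and 16.4 to 17.3 CPM in HCT-116 and at 17.6 to 28.7 and 21.9 to 29.1 CPM in T47D. PC3 had 4 to 20 reads in normoxia and 15 to 26 in hypoxia, and 2 of its 3 normoxic libraries passed the limit on low counts. Log2 fold changes of *NDRG2* were 0.54 in A549 (95% interval 0.03 to 1.06, edgeR adjusted p = 0.093), -0.26 in HCT-116 (-0.77 to 0.25, 0.378), 0.71 in PC3 (-0.50 to 1.92, 0.335) and 0.04 in T47D (-0.43 to 0.52, 0.916). None was called. The difference between lines in these changes was not called either (edgeR interaction adjusted p = 0.336). The exons of *NDRG2* overlap those of *TPPP2* on the opposite strand by 236 bases, and *TPPP2* had 0 reads in every library.

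The table of RefSeq starts used here (GRCh38.p14) held 5 for *NDRG2* and 4 for *NDRG4*, and the starts of *NDRG1* and *NDRG3* were not analysed here. The 250 bases before each start were searched on both strands for ACGTG and GCGTG, the core letters bound by HIF. *NDRG2* had 1 match at 3 of its 5 starts, and *NDRG4* had 4 matches at 1 of its 4 starts and 0 at the others. The *NDRG2* stretches at GRCh37 chr14:21493265-21493514 and chr14:21493221-21493470 overlap and hold the same match. Of 35116 promoters of the same length, 43.2% held at least 1 match and 7.76% held at least 3. The *NDRG2* stretches that touch no annotated exon are shown, read 5′ to 3′ on the minus strand with matches in capitals, because they set a start with the letters beside a start without them in a gene whose RNA was not called in any line. They lie at GRCh37 chr14:21539032-21539281 and chr14:21494470-21494719.
NDRG2 outer start: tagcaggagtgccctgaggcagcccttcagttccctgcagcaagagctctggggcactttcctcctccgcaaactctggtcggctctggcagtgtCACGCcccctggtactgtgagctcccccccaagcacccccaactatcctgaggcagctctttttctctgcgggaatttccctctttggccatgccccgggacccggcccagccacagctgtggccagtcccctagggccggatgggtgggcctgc
NDRG2 inner start: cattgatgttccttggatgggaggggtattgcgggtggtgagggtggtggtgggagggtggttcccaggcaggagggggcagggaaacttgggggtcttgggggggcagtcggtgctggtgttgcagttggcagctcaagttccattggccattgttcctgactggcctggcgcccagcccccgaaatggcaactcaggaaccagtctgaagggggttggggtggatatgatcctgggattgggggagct
The outer stretch holds 1 match, in the reverse orientation, and the inner stretch holds 0. A match is a run of letters and no binding was measured here.

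*NDRG4* (chr16:58496750-58547532, plus strand, 15 exons) differed between every pair of lines in normoxia and was not called for hypoxia in any. In A549 cells it was 22.4, 21 and 23.4 CPM in normoxia and 28, 27.1 and 26.9 CPM in hypoxia. In HCT-116 cells it was 8.45, 8.38 and 9.41 CPM in normoxia and 6.4, 7.79 and 8.16 CPM in hypoxia. Hypoxic libraries were all above the normoxic ones in A549 and all below them in HCT-116. With libraries scaled to total counts, A549 stayed apart but HCT-116 overlapped. HCT-116 was then at 7.41 to 9.55 CPM in normoxia and 6.08 to 7.87 CPM in hypoxia.

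PC3 libraries overlapped, at 3.85 to 5.73 CPM of *NDRG4* in normoxia and 4.68 to 6.28 CPM in hypoxia. T47D libraries overlapped too, at 0.446 to 2.29 and 0.841 to 1.49 CPM, with only 28 reads in normoxia replicate 3. Log2 fold changes of *NDRG4* were 0.29 in A549 (95% interval 0.06 to 0.52, edgeR adjusted p = 0.0516), -0.35 in HCT-116 (-0.82 to 0.11, 0.19), 0.19 in PC3 (-0.28 to 0.66, 0.509) and -0.47 in T47D (-1.63 to 0.69, 0.584). The A549 value lay at the threshold. It was called without A549 normoxia replicate 3 (0.33, edgeR adjusted p = 0.043) and by DESeq2 (0.30, adjusted p = 0.0496), and over all alternatives its adjusted p ran from 0.043 to 0.553. The interaction test did not call a difference between lines (edgeR adjusted p = 0.532), except without replicate 3 of every group (0.0353).

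In each line 4 of 4 members were tested, 1 was called up, *NDRG1*, and 0 were called down. Of all genes tested, 17.6% were called up and 17.8% down in A549, 23.3% and 27% in HCT-116, 16.6% and 15.7% in PC3, and 6.55% and 6.69% in T47D. Because the family was selected on *NDRG1* in this contrast, nothing is read from its count. Of the other 3 members, 0 passed the interaction test of line and oxygen, beside 18.3% of all genes tested.

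**Figure D2:**
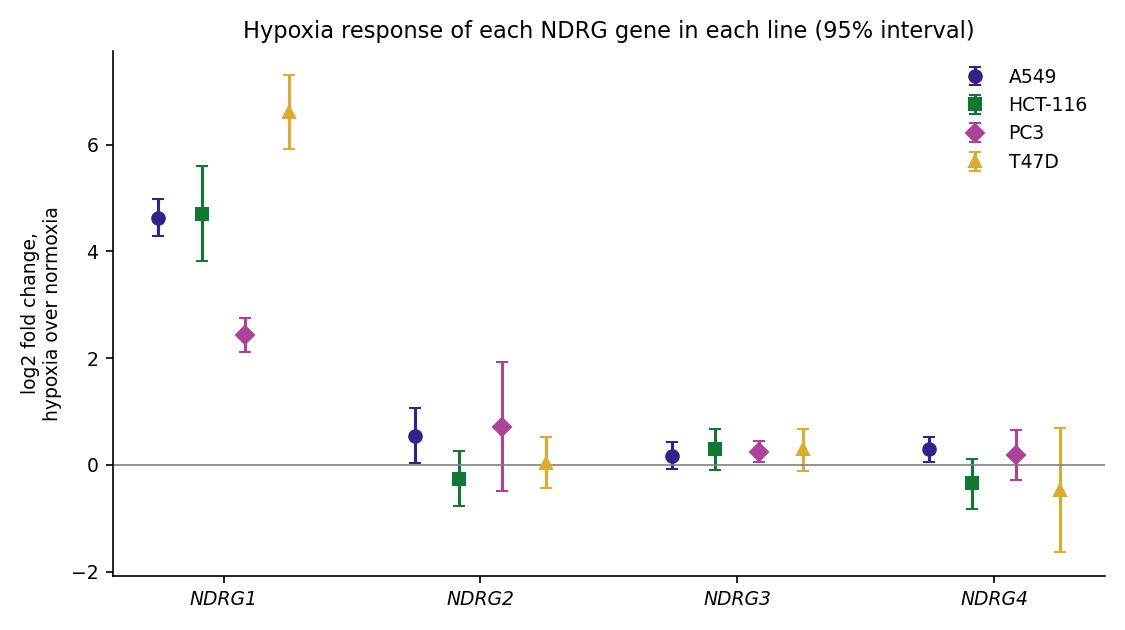
Log2 fold change of each NDRG gene, hypoxia over normoxia, in each of 4 lines. Points are estimates of the edgeR fit of that line (3 against 3 libraries) and bars are 95% intervals. *NDRG1* lies between 2.43 and 6.61, and the other 3 genes lie between -0.47 and 0.71.

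In normoxia, in a fit without hypoxic libraries, *NDRG2*, *NDRG3* and *NDRG4* each differed between lines. The same normoxic libraries are 1 side of the contrast on which *NDRG1* was selected. Its normoxic values are therefore given as a description with no p value. *NDRG1* was 302 ± 29.1 CPM in PC3, 71.6 ± 13.3 in A549, 54 ± 18.1 in HCT-116 and 2.77 ± 1.13 in T47D (SD, n = 3). PC3 exceeded T47D 108-fold (log2 difference 6.76, SE 0.33, 95% interval 6.06 to 7.46). It exceeded A549 4.22-fold (A549 minus PC3 -2.08, 95% interval -2.64 to -1.52). A549 and HCT-116 were neighbours (log2 difference 0.40, 95% interval -0.14 to 0.95). Without HCT-116 normoxia replicate 3 their difference was 0.71.

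*NDRG2* had a different order, with 22.5 ± 5.65 CPM in T47D, 18.5 ± 5.96 in HCT-116, 2.02 ± 0.381 in A549 and 0.232 ± 0.126 in PC3 (SD, n = 3). T47D exceeded PC3 89-fold (log2 difference for PC3 minus T47D -6.48, SE 0.39, edgeR adjusted p = 4.94e-10). T47D and HCT-116 were not called apart (HCT-116 minus T47D -0.28, 95% interval -0.87 to 0.30, edgeR adjusted p = 0.373). PC3 and T47D therefore stood at opposite ends of the orders of *NDRG1* and *NDRG2*.

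*NDRG3* had the smallest fold difference between its highest and lowest line among the 4, with means from 81 ± 6.23 CPM in T47D through 64.3 ± 3.83 in PC3 and 62.1 ± 3 in A549 to 38.2 ± 6.76 in HCT-116 (SD, n = 3). T47D exceeded HCT-116 2.11-fold (edgeR adjusted p = 9.37e-06). PC3 and A549 were not called apart (A549 minus PC3 -0.05, 95% interval -0.37 to 0.27, edgeR adjusted p = 0.79). T47D was called above A549 (A549 minus T47D -0.38, edgeR adjusted p = 0.0325) but not above PC3 (PC3 minus T47D -0.33, 0.0603). Both lay near the threshold. Leaving out any 1 of 6 libraries (A549 normoxia replicates 1, 2 and 3, PC3 normoxia replicate 1, T47D normoxia replicates 1 and 3) lost the first call, with an adjusted p of up to 0.106. Leaving out A549 normoxia replicate 2 or HCT-116 normoxia replicate 2 or 3 gained the second, with an adjusted p down to 0.0218.

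*NDRG4* went from 22.3 ± 1.22 CPM in A549 to 8.75 ± 0.576 in HCT-116, 4.51 ± 1.06 in PC3 and 1.63 ± 1.03 in T47D (SD, n = 3). All 6 pairs of lines were called, from 13.7-fold for A549 over T47D (edgeR adjusted p = 4.31e-07) to 1.94-fold for HCT-116 over PC3 (edgeR adjusted p = 0.0314). The last call was lost without HCT-116 normoxia replicate 3 or PC3 normoxia replicate 1 or 2 (adjusted p up to 0.0958).

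By pair of lines, 3 members were called between A549 and HCT-116 and 3 between A549 and PC3, beside 64.9% and 60% of all genes. All 4 were called between A549 and T47D and all 4 between HCT-116 and PC3, beside 66.6% and 65.6%. For HCT-116 and T47D it was 3, beside 68.5%, and for PC3 and T47D 3, beside 67.8%. With 4 genes these counts were not far from the background.

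Levels of different members were compared per kilobase of transcript (RPKM) with 2 lengths, because the union of exons makes *NDRG1* 12002 bases long and its canonical transcript 3025. With either length *NDRG1* was above *NDRG3* in hypoxic A549 (148 against 21.5 RPKM by exon union, 589 against 23.5 by canonical transcript), hypoxic HCT-116 (127 against 15.5, 504 against 17) and PC3 in both states. With either length *NDRG3* was the leading member in normoxic T47D, at 24.8 against 0.231 RPKM of *NDRG1* by exon union. In normoxic A549 and HCT-116 and in hypoxic T47D the order of *NDRG1* and *NDRG3* turned with the length used.

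*NDRG1* supplied 21.5% ± 2.29 of the summed NDRG level by exon union in normoxic A549 and 85.7% ± 1.23 in hypoxia. The share went from 22.6% ± 2.79 to 84.8% ± 7.86 in HCT-116, from 55.4% ± 2.24 to 84.7% ± 2.51 in PC3 and from 0.806% ± 0.266 to 40% ± 3.94 in T47D (SD, n = 3). By canonical transcript the normoxic shares were 45.1%, 44.4%, 81.1% and 2.49%, and the hypoxic shares were 94.7%, 94.1%, 95.1% and 68.1%, in the same order of lines. These shares include the selected *NDRG1* values and are a description.

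**Figure D3:**
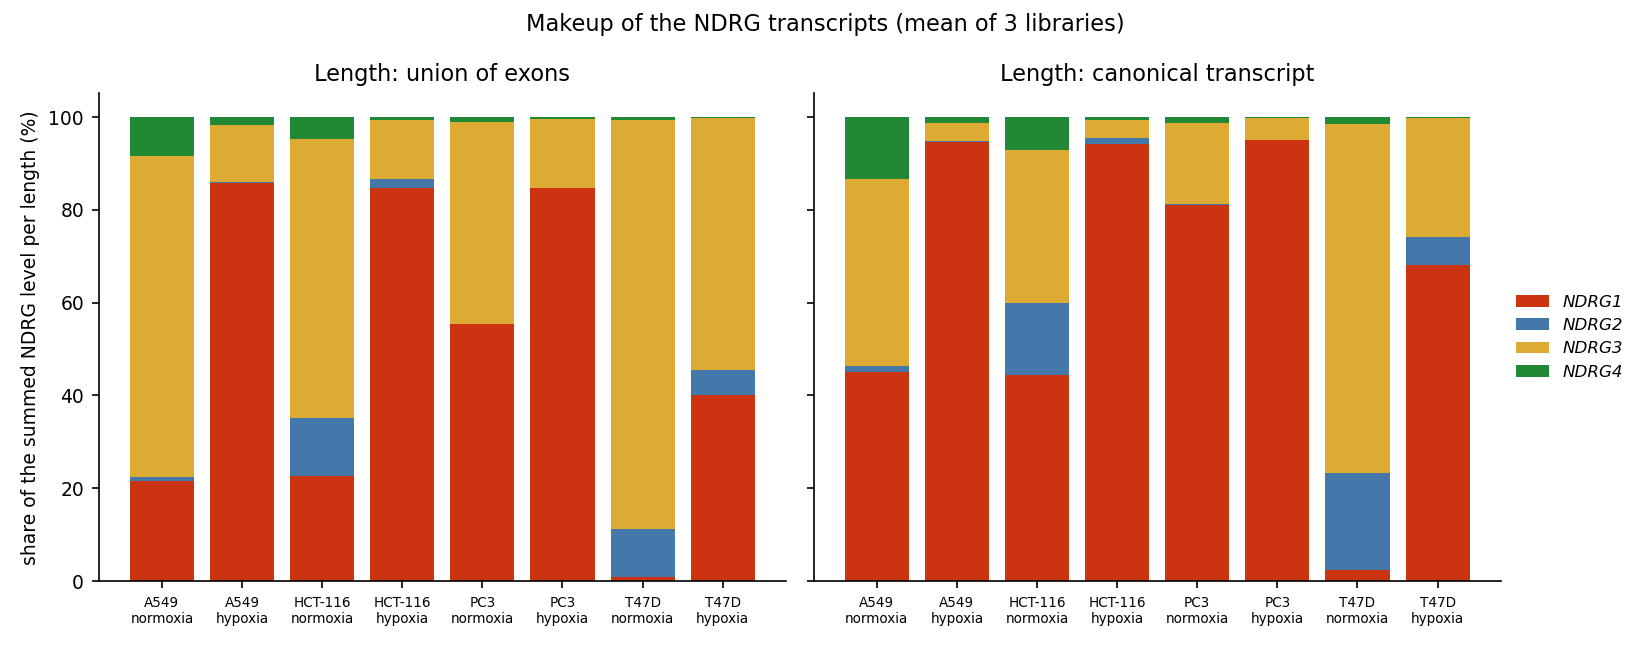
Share of each NDRG gene in the summed NDRG level per length, in percent, for each line and oxygen state (mean of 3 libraries), with the union of exons as length on the left and the canonical transcript on the right. The *NDRG1* share in T47D goes from 0.806% to 40% by exon union and from 2.49% to 68.1% by canonical transcript.

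Regulators and partners of the family were described from 6 lists by textbook roles. Of 9 tested genes of HIF and oxygen sensing, 5 were called up in A549, 5 in HCT-116, 4 in PC3 and 2 in T47D. In A549 1 was called down, and 1 in T47D. Of all genes, 17.6%, 23.3%, 16.6% and 6.55% were called up and 17.8%, 27%, 15.7% and 6.69% down, in the same order of lines. The median log2 fold changes were 0.36, 0.66, 0.35 and 0.36, beside -0.01, -0.03, -0.01 and -0.01 over all genes. *EGLN3* and *EGLN1*, which encode the oxygen-sensing hydroxylases PHD3 and PHD2, rose in all 4 lines. *EGLN3* rose by 5.15 in A549 (edgeR adjusted p = 2.92e-09) and by 3.98 in T47D, and went from 1.48 to 4.43 CPM in PC3 (edgeR adjusted p = 0.0158). *EGLN1*, whose product hydroxylates NDRG3, went from 42.1 to 229 CPM in T47D.

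The kinases that phosphorylate NDRG1 and their activators moved in both directions. Of 10 tested genes (9 in T47D), 2, 3, 3 and 0 were called up in A549, HCT-116, PC3 and T47D, and 2, 2, 1 and 1 down, with medians of 0.06, 0.09, 0.23 and 0.14. The shares of all genes called were 17.6%, 23.3%, 16.6% and 6.55% up and 17.8%, 27%, 15.7% and 6.69% down, so 2 of 10 in A549 and 3 of 10 in HCT-116 were near the background. *SGK3* fell in all 4 lines, by 0.48 in A549 (edgeR adjusted p = 0.0491) and by 1.16 in HCT-116 (edgeR adjusted p = 0.00079). *GSK3B*, which completes the phosphorylation begun by SGK1, rose in A549, HCT-116 and PC3 by 0.51, 1.06 and 0.58.

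In the MYC network, 10 genes were tested (11 in T47D). Of these, 6, 6, 4 and 4 were called up and 1, 1, 0 and 1 down in A549, HCT-116, PC3 and T47D. The background shares were 17.6%, 23.3%, 16.6% and 6.55% up and 17.8%, 27%, 15.7% and 6.69% down. The medians were 0.50, 0.98, 0.12 and 0.26. *MXI1* and *MXD4*, which encode antagonists of MYC, rose in all 4 lines. *MXI1* rose by 2.25 in T47D (edgeR adjusted p = 5.53e-05) and by 0.40 in PC3 (edgeR adjusted p = 0.0407). *MXD4* rose by 1.52 in HCT-116 and by 0.52 in PC3. *MNT* and *MXD1*, further antagonists, rose in A549, HCT-116 and PC3. *MYC* and its relative *MYCL1* fell outside the naming rule and were added after their values were seen. *MYC* rose by 1.08 in HCT-116 (edgeR adjusted p = 0.00253) and by 1.01 in T47D (edgeR adjusted p = 0.0147), and was not called in A549 (0.20, edgeR adjusted p = 0.245) or PC3 (0.03, edgeR adjusted p = 0.812). *MYCL1* rose by 1.19 in A549 and by 1.92 in T47D.

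Among the genes of lactate handling and RAF kinases, tied to NDRG3 signalling, 2 were called up in each line, *LDHA* and *SLC16A3*, and 1 down, *LDHB* in A549. The tested genes numbered 7 (6 in T47D), and the same background shares apply, with medians of 0.19, 0.33, 0.03 and 0.21. *LDHA*, which makes lactate, went from 456 to 3990 CPM in T47D and from 3374 to 5321 CPM in PC3. *SLC16A3*, which exports it, rose by 3.36 in T47D and went from 254 to 603 CPM in PC3. *BRAF* was not called in any line (edgeR adjusted p from 0.0819 to 0.88).

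Partners in E-cadherin recycling and WNT signalling were called up for 5 of 8 tested genes in A549 and 4 of 8 in HCT-116. In PC3 it was 2 of 7 and in T47D 0 of 8, and 0 were called down in each line. Of all genes, 17.6%, 23.3%, 16.6% and 6.55% were called up and 17.8%, 27%, 15.7% and 6.69% down, in the same order of lines. The medians were 0.41, 0.69, 0.13 and 0.52. *CDH1*, which encodes E-cadherin, rose by 1.13, 2.15 and 0.54 in A549, HCT-116 and PC3. Its T47D value was 0.79 (edgeR adjusted p = 0.0644). *CTNNA1*, the alpha-catenin gene, had no reads in PC3 in either state. Among other regulators, 2 of 8, 3 of 6, 0 of 6 and 1 of 8 tested genes were called up and 0 down, against the same background, with medians of 0.09, 0.57, 0.03 and 0.34. *EGR1*, a zinc finger transcription factor gene, rose by 1.94 in HCT-116 (edgeR adjusted p = 0.00115), and *WT1*, another, rose by 2.31 in T47D (edgeR adjusted p = 7.72e-05).

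The nearest counted genes on each side of the members, and genes overlapping them, were examined in the same fits. Next to *NDRG1*, *WISP1* lies 5484 bases away and rose by 1.83 in A549 (edgeR adjusted p = 0.000242). It had at most 6 reads in any HCT-116 or T47D library. In PC3 its mean was 0.13 CPM in normoxia, under the limit on low counts (0.213 CPM), and 0.815 CPM in hypoxia, with at most 50 reads. It passed that limit only through hypoxic libraries, so its PC3 log2 fold change of 2.69 is a description. *ST3GAL1*, a sialyltransferase gene on the other side of *NDRG1*, rose by 1.04, 0.96 and 0.36 in A549, HCT-116 and PC3, while its T47D value was 0.37 (edgeR adjusted p = 0.374). Next to *NDRG2*, *ZNF219* rose by 0.53, 0.97 and 0.73 in A549, HCT-116 and PC3, while its T47D value was 0.03 (edgeR adjusted p = 0.934). *SLC39A2*, a zinc transporter gene on its other side, was tested in T47D only and rose by 1.46 there (edgeR adjusted p = 0.0408), with at most 87 reads in a library. *ARHGEF40*, which overlaps *NDRG2* on the other strand, was not called in any line (edgeR adjusted p from 0.172 to 0.94).

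Beside *NDRG3*, the kinetochore gene *DSN1* fell by 0.62 in A549, by 1.56 in HCT-116 and by 0.87 in T47D, and had a log2 fold change of -0.34 in PC3 (edgeR adjusted p = 0.052). *SLA2*, on the other side of *NDRG3*, had too few reads to be tested in any line. Beside *NDRG4*, the lysine methyltransferase gene *SETD6* lies 1850 bases away and fell in all 4 lines, by 0.54, 1.05, 0.52 and 0.82 in A549, HCT-116, PC3 and T47D (edgeR adjusted p from 0.00154 to 0.0233). *GINS3*, on its other side, was not called in any line (edgeR adjusted p from 0.138 to 0.98).

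**Figure D4:**
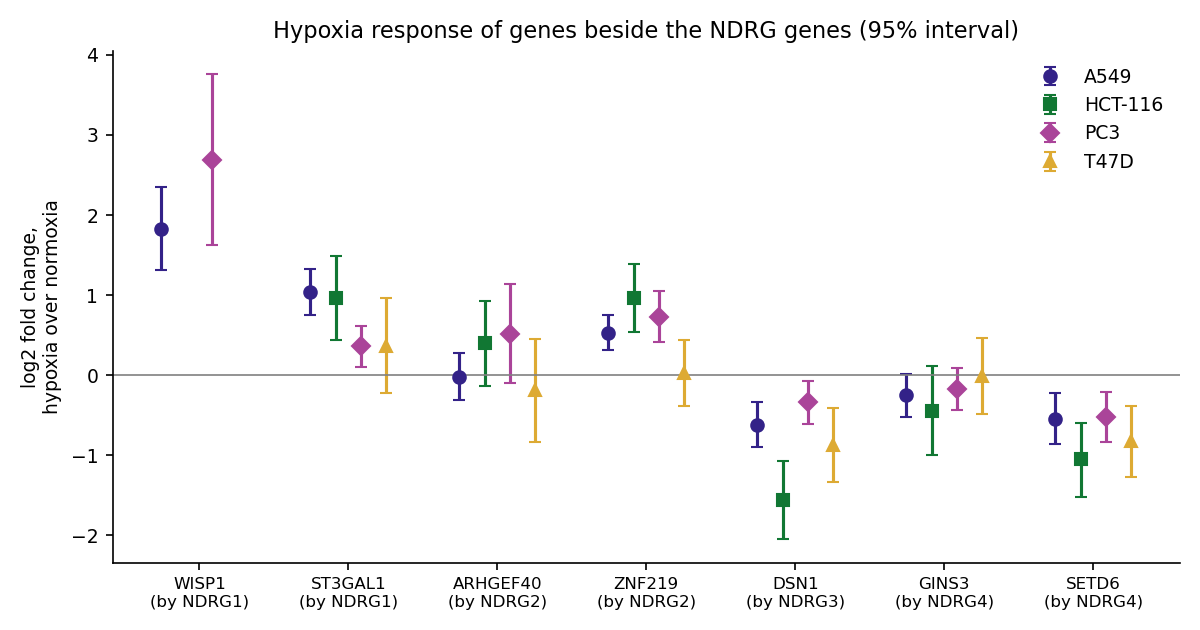
Log2 fold change, hypoxia over normoxia, of 7 genes beside or overlapping the NDRG genes in each line where they were tested. Points are edgeR estimates and bars are 95% intervals (3 against 3 libraries). *SETD6* beside *NDRG4* lies below 0 in all 4 lines, and *WISP1* beside *NDRG1* was tested in A549 and PC3 only.

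The genes most like each member over the 24 libraries were found among 11270 genes by Pearson's r of log2 CPM, a description in which all points share line and depth. For *NDRG1* they were *RAB11B* (0.962), *LDHA* (0.954), *SLC2A1* (0.951), *GBE1* (0.933) and *AGPAT2* (0.932). With line means removed, their r stayed between 0.937 and 0.969. The step between oxygen states, on which *NDRG1* was selected, was not removed from these or the following values. For *NDRG2* they were *RAB38* (0.977), *FGFR3* (0.972) and *HSDL1* (0.970), but with line means removed r was 0.355, -0.095 and 0.175.

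For *NDRG3* the closest were *SEL1L* (0.965), *RTN3* (0.964) and *GPRC5C* (0.955), with r of 0.836, 0.904 and 0.866 once line means were removed. For *NDRG4* they were *S100A3* (0.972), *TLR6* (0.960) and *AKR1B1* (0.960), with 0.792, 0.758 and 0.327. By Spearman's rho these 3 ranked 63, 122.5 and 27, and the 3 for *NDRG2* ranked 16, 56.5 and 18.5. Those for *NDRG3* ranked 6, 4 and 3. Some means were near or under the floor, with *S100A3* at 0.0474 and *AKR1B1* at 0.00774 CPM in normoxic T47D and *RAB38* at 0.0138 CPM in normoxic PC3. Between members, *NDRG1* and *NDRG3* had r of 0.03 over all libraries and 0.82 with line means removed. The second value still holds the step between oxygen states, and both genes had higher means in hypoxia in each line. It does not show that they vary together apart from oxygen. The other pairs ranged from -0.14 to 0.46 with line means removed.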

How the data were processed

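The deposited counts are whole numbers of reads per gene symbol, without normalization. The authors made them by trimming with Trim Galore (0.3.3), aligning to GRCh37 with HISAT2 (2.05), removing fragments without a unique position with Picard (2.0.1) and counting UCSC genes with HTSeq (0.5.4p3) in its intersection-strict mode. The library kit was directional, but the strand setting of the count is not given in the sources used here. Reads without molecular identifiers are not independent molecules, so the floor of 3 counts covers counting error only.

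Groups came from the sample labels. Counts were tested with edgeR 4.0.16 (R 4.3.3), using filterByExpr, TMM and the quasi-likelihood test, in 1 fit per line for hypoxia, 1 fit of 24 libraries for differences between lines and 1 fit of 12 normoxic libraries for levels. Adjusted p values are Benjamini-Hochberg values over every gene of a fit. Log2 CPM used a prior count of 2. RPKM used lengths and coordinates from GENCODE (GRCh37), which matched 21588 of the 23106 symbols. The tests were checked on simulated counts. Alternatives were DESeq2 1.42.0, other scalings and filters, a fold change over 1.5, the replicate block, and each library left out.

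The members, lists and neighbours were chosen with earlier results of these data known. All 4 members are given in full. At most 4 genes per list are named, those called in the same direction in the most lines with ties broken by the mean absolute log2 fold change, with the nearest counted gene on each side, overlapping genes, and the 5 genes (3 for *NDRG2*, *NDRG3* and *NDRG4*) with the highest r. A gene that this rule would name is not reported here. Normoxia and hypoxia carry the same replicate numbers in the labels. Libraries with the same number deviated together, with r over 0.1 for every pair, in T47D only (r = 0.154, 0.325 and 0.303). The numbers were taken to pair libraries there. Elsewhere the values were mixed, with 0.207, 0.089 and 0.083 in A549 and 0.288, 0.224 and 0.071 in HCT-116. In PC3 they were 0.081, 0.082 and 0.078, above the highest r of a different number (-0.018). The main fits used no block in any line, T47D included. The T47D p values and background shares therefore ignore this pairing. With the block, 1485 genes were called down in T47D in place of 942.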

Additional observations from a re-analysis of the deposited data

Results flagged for a closer look

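*NDRG4* was flagged because, after TMM, all 3 hypoxic libraries lay above the normoxic ones in A549 and below them in HCT-116. With libraries scaled to total counts the HCT-116 groups overlapped. The share of all genes that separate in this way is not given here, so nothing is read from the flag. The log2 fold change of *NDRG4* was 0.29 in A549 and -0.35 in HCT-116, and neither was called. The test of the difference itself, A549 minus HCT-116 in the fit of all 24 libraries, gave 0.53 (95% interval -0.37 to 1.43, edgeR adjusted p = 0.436).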

How the results depend on the processing

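No called difference of an NDRG gene changed sign under any alternative run. Uncalled values near 0 did, with *NDRG2* in T47D (0.04) down to -0.11, the average of *NDRG4* (-0.01) up to 0.02 and *NDRG3* in normoxic A549 minus PC3 (-0.05) up to 0.01. With 1 library left out, the log2 fold change of *NDRG1* was 4.55 to 4.80 in A549, 4.25 to 5.10 in HCT-116, 2.33 to 2.57 in PC3 and 6.41 to 6.95 in T47D. Calls near the threshold moved. The number of NDRG genes called up in A549 was 2 with RLE size factors, a mean count of at least 50 and DESeq2, where *NDRG4* was called at 0.30, 0.29 and 0.30. With 1 library left out, that number was 1 to 2 in A549 (*NDRG4* at 0.25 to 0.33) and 1 to 2 in PC3 (*NDRG3* at 0.20 to 0.28). In 1 fit of all 24 libraries it was 2 in HCT-116 and 2 in T47D, where *NDRG3* was called at 0.40 and 0.37. The average change of *NDRG3* was 0.19 with total counts, 0.26 with no filter and 0.24 to 0.35 with 1 replicate left out. The adjusted p of the difference between lines for *NDRG4* was 0.0353 to 0.927 with 1 replicate left out.

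With the replicate number as a block, no NDRG gene changed its call in a line, and *NDRG3* in T47D was 0.29 (edgeR adjusted p = 0.259). Under the block the average change of *NDRG2* was called, at 0.34 (edgeR adjusted p = 0.0434), and 1485 genes were called down in T47D in place of 942. Outside T47D the r of libraries with the same number ran from 0.071 to 0.288, so pairing there is uncertain.

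In normoxia, total counts gave 0.88 for *NDRG4* in HCT-116 minus PC3, no longer called. *NDRG3* in PC3 minus T47D was called with RLE size factors, total counts and DESeq2 (-0.37, -0.48 and -0.37). With 1 library left out these ran from 0.86 to 1.16 and from -0.41 to -0.27, *NDRG3* in A549 minus T47D from -0.44 to -0.32, and *NDRG1* in A549 minus HCT-116 from 0.23 to 0.71.

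Over all genes, 1 fit of 24 libraries called 1427 up and 1182 down in A549, 867 and 425 in PC3, and 2231 and 1599 in T47D. A fold change over 1.5 left 1398 and 1144 in A549 and 1019 and 892 in PC3. With 1 library left out, 1467 to 2629 genes were called down in A549, 1308 to 2629 up and 875 to 2732 down in PC3, and 180 to 1549 up and 19 to 1756 down in T47D. Genes whose response differed between lines numbered 4435 with DESeq2 and 165 to 2478 with 1 replicate left out. Total counts moved the median of all genes from -0.01 to -0.13 in A549 and from -0.01 to -0.12 in T47D, and the share of calls that were up from 49.8% to 33.9% and from 49.5% to 32.1%. For the average of 4 lines that share went from 54.8% to 41.5%.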
